A study of Mus musculus with 24 samples.

Results

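Respiratory complex I, the NADH:ubiquinone oxidoreductase of the mitochondrial inner membrane, was examined through the nuclear genes that encode its subunits and assembly factors. Members were the protein-coding rows of the count table whose symbol begins with Nduf and that had a count in at least 1 library. This gave 46 genes among 18668 protein-coding rows with a count and 39396 rows in all. Of these, 38 were taken as subunits and 8, whose symbols begin with Ndufaf, as assembly factors. Polyadenylated RNA of mouse left ventricle had been sequenced in 24 libraries, which fell into 4 groups of 6: DKO labelled day 7, control labelled day 7, DKO labelled day 1 and control labelled day 1. In DKO mice, Rhot1 and Rhot2 had been deleted selectively in cardiomyocytes during embryonic life. These genes encode the RHOT (Miro) proteins, which couple mitochondria to motor proteins on microtubules. The sources used here do not give the Cre line, its promoter, the strain or the alleles of the controls. Although the labels give cardiomyocyte as the cell type, RNA was taken from whole left ventricular tissue, which also holds fibroblasts, vessels and blood. Nothing in the labels ties a library to an animal of its own. The p-values below judge group differences against the spread between libraries, which may differ from that between animals.

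Complex I takes electrons from NADH, passes them along a chain of iron-sulfur clusters to ubiquinone and pumps protons across the inner membrane. Its matrix arm is built from an N module, which oxidises NADH, and a Q module, which reduces ubiquinone, and its membrane arm from a proximal and a distal part around subunits encoded by mitochondrial DNA. The core subunits carry out catalysis, the accessory subunits surround and stabilise them, and assembly factors join the modules without remaining in the finished enzyme. In the heart, the complex feeds the respiratory chain that supplies most of the ATP for contraction, and its content is known to increase as the heart matures after birth.

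The labels of age are used as given, but developmental markers ran opposite to their known course. Median CPM (counts scaled to library size with TMM, the trimmed mean of M values) of the fetal growth gene Igf2 was 767 in controls labelled day 7, against 210 in controls labelled day 1. The fetal gene Dlk1 was at a median of 67.6 CPM in controls labelled day 7, against 9.93 CPM in controls labelled day 1. Cox8b, a cytochrome oxidase subunit known to increase in heart muscle after birth, was at 73.1 CPM in controls labelled day 7, against 472 CPM in controls labelled day 1. The markers were chosen after the data had been seen, and all 9 of them moved this way in DKO as well as in control medians. Total counts per library were 22345262 to 30453874 for DKO and 17334498 to 27272982 for control at labelled day 7, against 30318018 to 37967935 for DKO and 36145645 to 45806171 for control at labelled day 1. Y-linked transcripts were present in 2 DKO and 2 control libraries labelled day 7, and in all 6 of each genotype labelled day 1. The naming scheme of the libraries also differed between the labelled ages, so labelled age, depth and naming scheme cannot be told apart. Rhot1 was at a median of 129 CPM in DKO and 157 CPM in controls at labelled day 7, and at 118 CPM in DKO and 164 CPM in controls at labelled day 1. Its ranges overlapped at both labelled ages, with 123 to 151 CPM in DKO and 144 to 164 CPM in controls at labelled day 7, and 107 to 136 CPM in DKO and 129 to 173 CPM in controls at labelled day 1. Rhot2 was listed at 0 in all 24 libraries and gives no check of the deletion.

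Of the 46 members, 45 passed the filter on low counts, 37 subunits and all 8 assembly factors. Ndufb11b, listed as a subunit, did not pass: it had 1 count over the 6 DKO libraries and 0 over the 6 controls at labelled day 7, and 1 over the 6 DKO libraries and 2 over the 6 controls at labelled day 1. Ndufa13, a proximal membrane subunit that is also known as a cell death regulator, was listed at 0 throughout and was therefore no member. All of its exonic bases lie inside other genes in the GENCODE M21 annotation. The 7 complex I genes of the mitochondrial genome were listed at 0 in all 24 libraries, so nothing can be said of their levels. Ndufb1 had no row under that symbol, and the pseudogene rows were not analysed here as members. Most exonic bases of Ndufs1 (70.4%), Ndufb9 (69.0%), Ndufaf2 (65.7%) and Ndufb8 (64.6%) lie inside other genes. How reads on such bases were counted is not stated in the sources used here, so the levels of these 4 genes may cover part of each transcript and are best compared between groups only.

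Members were abundant and spread over a wide range. Per kilobase of principal transcript, and averaged over all 24 libraries, the level was highest for Ndufa4 (1267 CPM per kb), followed by the distal membrane subunits Ndufb9 (940 CPM per kb) and Ndufb10 (936 CPM per kb). Ndufa4 carries a complex I name but is now known as a subunit of cytochrome c oxidase. Below these stood nearly all other subunits, and 7 of the 8 assembly factors lay between 22.3 CPM per kb (Ndufaf3) and 44.1 CPM per kb (Ndufaf1). The order of Ndufb9 and Ndufb10 depended on the labelled age: Ndufb9 was above Ndufb10 in both genotypes labelled day 7 (843 and 789 CPM per kb in DKO, 786 and 739 in controls) and below it in both labelled day 1 (1065.9 and 1087.5 CPM per kb in DKO, 1065.8 and 1130.2 in controls). Averaged over all libraries, the lowest levels of members that passed the filter were those of Ndufaf5 (19.2 CPM per kb), which hydroxylates the core subunit Ndufs7, and of the distal membrane subunit Ndufb2 (17 CPM per kb). In controls labelled day 1, Ndufaf6 (21.2 CPM per kb) was below both Ndufaf5 (22.5 CPM per kb) and Ndufb2 (22.6 CPM per kb). The value of Ndufb2 rests on a principal transcript annotated at 4371 nt, the longest of any member. Among core subunits encoded in the nucleus, Ndufv1 was at 552 CPM per kb and Ndufs1 at 96.7 CPM per kb. The levels of Ndufb9 and Ndufs1 may cover only part of each transcript, as given above, so their places among the members are uncertain.

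Promoters are shown for 3 members that the results below turn on. Ndufaf4 was the only member past the threshold between genotypes, Ndufa3 had the largest difference between labelled ages, and Ndufb4 held the most matches to a mitochondrial gene motif. RefSeq promoter windows (GRCm38.p6, 250 bases before to 50 after the start) matched 39 of the 46 members, with 41 windows. The windows were searched on both strands for motifs of factors known to control respiratory chain genes: the NRF1 motif, CCGGAAG for ETS factors such as GABPA, TCAAGGTCA for ERR receptors and the YY1 motif of housekeeping promoters. The 250 bases before the start are printed 5′ to 3′ along the gene, with NRF1 matches in capitals, from chr4:24897833-24898082 (plus strand) for Ndufaf4, chr7:3617123-3617372 (plus strand) for Ndufa3 and chr16:37654369-37654618 (minus strand) for Ndufb4.
Ndufaf4: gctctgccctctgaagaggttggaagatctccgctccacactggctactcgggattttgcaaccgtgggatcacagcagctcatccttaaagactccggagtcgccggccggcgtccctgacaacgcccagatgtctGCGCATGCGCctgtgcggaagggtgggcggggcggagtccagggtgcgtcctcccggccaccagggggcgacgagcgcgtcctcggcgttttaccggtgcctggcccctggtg
Ndufa3: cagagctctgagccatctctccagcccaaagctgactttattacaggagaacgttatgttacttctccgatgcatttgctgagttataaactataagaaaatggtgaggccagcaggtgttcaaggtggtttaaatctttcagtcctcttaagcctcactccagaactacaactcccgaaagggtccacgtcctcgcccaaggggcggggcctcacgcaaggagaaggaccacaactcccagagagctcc
Ndufb4: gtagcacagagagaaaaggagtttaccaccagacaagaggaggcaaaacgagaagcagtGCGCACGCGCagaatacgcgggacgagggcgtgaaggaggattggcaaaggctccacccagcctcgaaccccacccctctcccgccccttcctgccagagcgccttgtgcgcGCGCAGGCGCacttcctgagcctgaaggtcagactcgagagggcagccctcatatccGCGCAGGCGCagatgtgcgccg

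The NRF1 letters were found in 10 of the 41 member windows (24.4%), against 4.6% of 32851 windows of all genes. They began 191, 79 and 22 bases before the start in Ndufb4 and 113 bases before it in Ndufaf4, and there was no match in the window of Ndufa3. The YY1 letters were found in 5 member windows (12.2%), against 0.63% of all windows, in Ndufa9, Ndufaf8, Ndufs4, Ndufs6 and Ndufs7. The ETS letters were found in 6 member windows (14.6%), against 8.86% of all, and the ERR letters in 0 member windows, against 0.42% of all. No match of a motif overlapped a match of another. These are letter matches in fixed windows and do not show binding.

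Summed over all 38 subunits, the level in the ventricle was close in DKO and control and lower in the libraries labelled day 7. The sum includes Ndufa4 and Ndufa4l2, which lie outside complex I. Without them, its medians were 12889 CPM in DKO and 12516 CPM in controls at labelled day 7. At labelled day 1 those medians were 16698 CPM in DKO and 16778 CPM in controls. The values that follow are for all 38. At labelled day 7 the sum had a lowest, median and highest value of 12218, 13495 and 13893 CPM in DKO, and of 10878, 13094 and 13460 CPM in controls. At labelled day 1 it was 16491, 17746 and 18274 CPM in DKO, and 16268, 17884 and 19176 CPM in controls. DKO and control ranges overlapped at both labelled ages, whereas within each genotype all 6 libraries labelled day 7 were below all 6 labelled day 1. The 8 assembly factors summed to 357 ± 33.6 CPM in DKO and 343 ± 15.6 CPM in controls at labelled day 7, and to 376 ± 19.7 CPM in DKO and 384 ± 17.2 CPM in controls at labelled day 1 (SD, n = 6 each). Their ranges overlapped between all 4 groups. In these tissue samples, fewer cells of a type and less RNA per cell cannot be told apart. The control library m1088 stood low at labelled day 7: it had the lowest level of its group for 38 of the 45 tested members, and the other 5 controls summed to 13046 to 13460 CPM over the subunits.

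**Figure D1:**
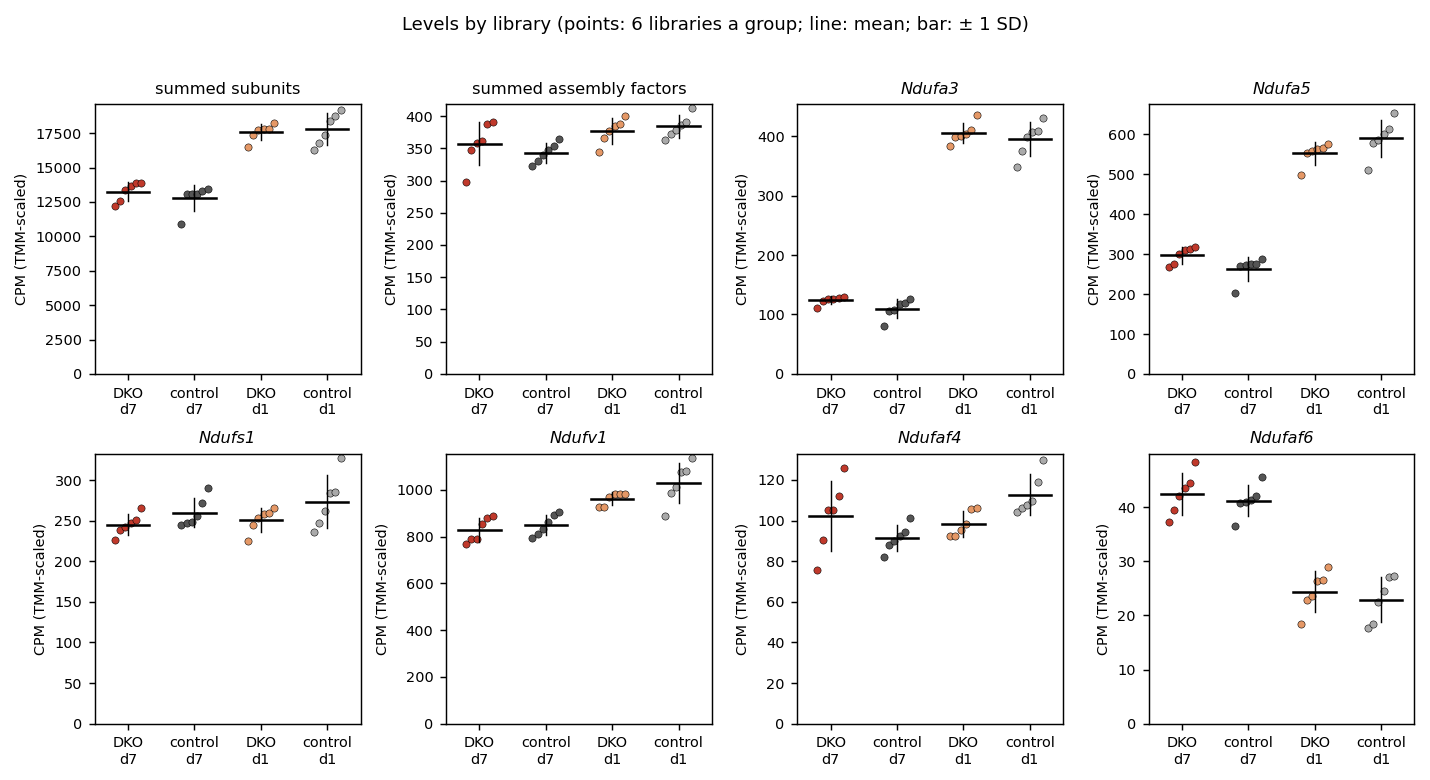
Level in CPM after TMM scaling (vertical axes, from 0) in each of the 24 libraries for the summed subunits, the summed assembly factors and 6 members, in the groups DKO and control labelled day 7 and DKO and control labelled day 1. Points are libraries, lines are means and bars are 1 SD; Ndufa3 and Ndufa5 lie lower and Ndufaf6 lies higher at labelled day 7 in both genotypes, while the points of Ndufs1 overlap across groups.

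The comparison of DKO with control ventricles at labelled day 1 asks which complex I transcripts go with the loss of the Miro proteins. In total 0 of the 37 subunits passed the threshold (edgeR quasi-likelihood F-test, adjusted p under 0.05 over 17352 genes), and 1 of the 8 assembly factors did, the lower Ndufaf4. Over all genes tested, 17.6% passed in this comparison, with 9.81% higher and 7.79% lower. The median log2 fold change of the 45 members was -0.01, against -0.02 over all genes. At an unadjusted p under 0.05, 0 subunits were higher and 1 was lower, and DESeq2 and limma-voom also called 1 member each.

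Ndufaf4 (ENSMUSG00000028261, chromosome 4), which binds Ndufaf3 and early assembly intermediates in human cells, was at a lowest, median and highest level of 92.4, 96.6 and 106 CPM in DKO and of 104, 109 and 130 CPM in controls at labelled day 1. In 4 of the 6 DKO libraries it was below every control, and the ranges overlapped in the other 2. Ndufaf4 fell in DKO, with a log2 difference of -0.20 ± 0.06 (SE, edgeR quasi-likelihood test, adjusted p = 0.0372). This call was lost when any of control 14, 22 or 56 or DKO 29, 33, 69 or 79 was left out (log2 -0.16 to -0.23 and a highest adjusted p of 0.089 over all 12 omissions). It was also lost with upper-quartile scaling, with protein-coding rows only, with either form of the length offset described below, with all 24 libraries in 1 fit, and with the atrial gene Myl7 as a covariate (adjusted p = 0.222), where Ndufaf2 was called higher instead.

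Among the other members, the widest differences at labelled day 1 did not pass. Ndufa1, an X-linked membrane subunit needed for assembly, was at 291, 305 and 350 CPM in DKO (lowest, median and highest), against 276, 364 and 401 CPM in controls. The groups overlapped, and the log2 fold change was -0.19 ± 0.08 (edgeR adjusted p = 0.11). Ndufaf5 had -0.18 ± 0.08 (edgeR adjusted p = 0.112), and the highest values were those of Ndufaf2, a relative of Ndufa12 that acts late in assembly, at 0.15 ± 0.06 (edgeR adjusted p = 0.119), of Ndufs5 at 0.11 and of Ndufa9 at 0.10. The 7 core subunits lay between -0.13 (Ndufs1) and 0.06 (Ndufs8). The medians of the modules were -0.02 for the N module, 0.02 for the Q module, 0.02 for the proximal and -0.05 for the distal membrane module. Outside complex I, neither gene passed, with Ndufa4 at -0.08 and its hypoxia-inducible relative Ndufa4l2 at 0.08.

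The intervals show how large a difference could have been missed. For 34 of the 37 subunits the 95% interval of the genotype effect at labelled day 1 lay within a 1.2-fold change in either direction, and the lowest bound of any subunit was a log2 value of -0.36 (Ndufa1) and the highest 0.24 (Ndufs5). No member had all 6 DKO libraries above or all 6 below the 6 controls, against 6.3% of all genes above and 3.09% below. The result turned on how transcript length was handled across row types. A per-library offset for the trend of counts with transcript length was added after seeing the data. With it, 14 of 45 members were lower in DKO, 13 of them subunits by symbol. They were led by Ndufa1 (-0.49), Ndufb7 (-0.30) and Ndufa4 (-0.27), the last of which lies outside complex I. In that fit the median over the 45 members was -0.12, against -0.01 over all genes. The share of all genes called in that fit is not given here, so the 14 cannot be set against it. With the same offset over protein-coding rows only, 0 were called. The counts of members at labelled day 1 therefore ranged from 0 to 14 over the settings tried.

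Among 14 tested assembly factor genes without an Nduf symbol, 2 rose at labelled day 1 and 0 fell, against 9.81% and 7.79% of all genes. Chchd4, the receptor of the import route for cysteine-rich proteins of the intermembrane space, was at 50.9, 60.1 and 61.9 CPM in DKO and 46.9, 49.3 and 56.9 CPM in controls. It rose by 0.23 ± 0.06 on the log2 scale (edgeR adjusted p = 0.0186), and only the lowest DKO library overlapped the controls. This call was lost with the Myl7 covariate (highest adjusted p over the settings 0.148). Acad9, an acyl-CoA dehydrogenase relative that works with Ndufaf1 in the assembly complex of the membrane arm, was at 96.4, 99.1 and 107 CPM in DKO and 77.5, 87.8 and 97.1 CPM in controls. The ranges met at their edges, and it rose by 0.18 ± 0.05 on the log2 scale (edgeR adjusted p = 0.0336). Its call was lost without any of control 22, 25 or 56 or DKO 29, 35 or 79 (highest adjusted p 0.0793), and with no filter on low counts (adjusted p = 0.0565). Ecsit and Foxred1 were listed at 0 throughout, and Coa1 had no row under that symbol.

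At labelled day 7, no member passed the threshold between DKO and control, in a comparison where 1.02% of all genes did (0.686% higher and 0.334% lower). For 0 of 45 members did the 6 DKO libraries lie all above or all below the 6 controls, against 1.11% of all genes above and 0.588% below. The log2 fold changes ran from -0.11 for Ndufaf7, a mitochondrial methyltransferase, to 0.21 for Ndufaf2. At an unadjusted p under 0.05, 3 members were higher in DKO and 0 lower: Ndufa6, Ndufaf2 and Ndufa12. DESeq2 and limma-voom called 0 members. Of the 45 members, 35 had a positive value, with a median of 0.04, against -0.01 over all genes. Without control library m1088, 24 had a positive value and the median was 0.01. With the length offset, 17 had a positive value over all rows and 27 over protein-coding rows only.

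Ndufa6, which holds an acyl carrier protein on the matrix arm, showed the pattern of the members with the highest values. It was at 232, 259 and 268 CPM in DKO and 182, 227 and 241 CPM in controls at labelled day 7, with overlapping ranges. Its log2 fold change was 0.18 ± 0.07 (edgeR adjusted p = 0.247). Ndufb4, a distal membrane subunit, was at 234, 273 and 293 CPM in DKO and 163, 247 and 261 CPM in controls, also overlapping, with 0.20 ± 0.10 (edgeR adjusted p = 0.397). Ndufaf2 was at 21, 23.5 and 24.2 CPM in DKO and 15.2, 20.2 and 21.2 CPM in controls (0.21 ± 0.09, edgeR adjusted p = 0.268). For each of these 3 genes the lowest control was m1088. The core subunits stood between -0.09 (Ndufs1) and 0.03 (Ndufs8). The 95% interval lay within a 1.2-fold change in either direction for 25 of the 37 subunits and for 6 of the 8 assembly factors.

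**Figure D2:**
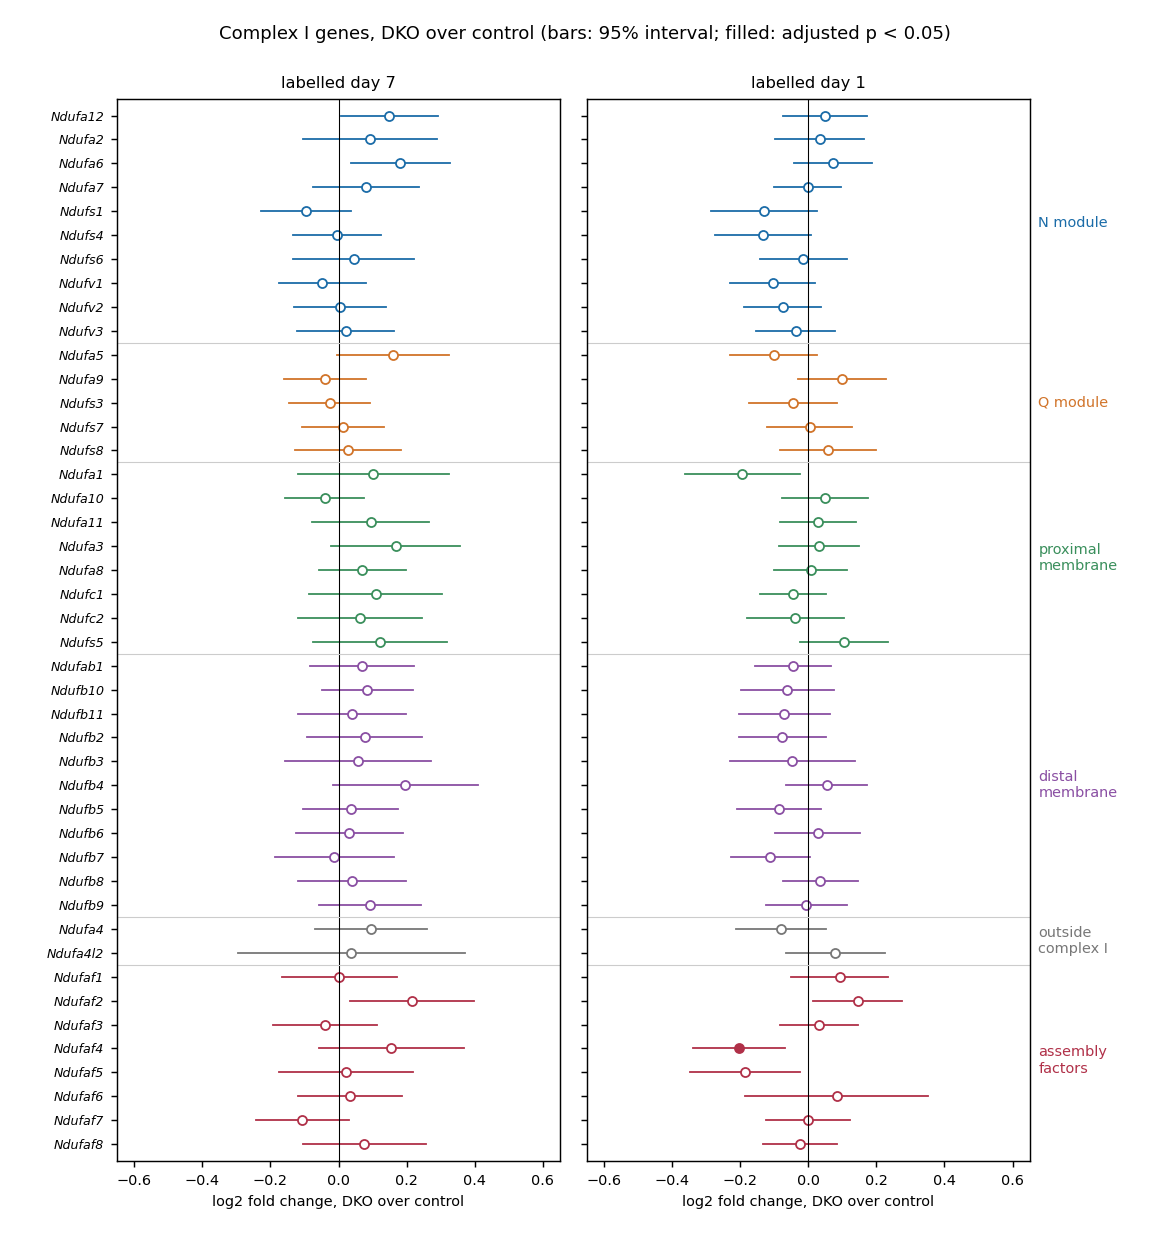
Log2 fold change of DKO over control for 44 of the 45 tested members (rows, grouped by module), at labelled day 7 on the left and labelled day 1 on the right. Points are edgeR estimates, bars are 95% intervals and filled points have an adjusted p under 0.05; Ndufaf4 at labelled day 1 is the filled point, and most intervals cross 0.

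No difference of the genotype effect between the labelled ages was detectable at this number of libraries. In the test of the difference, 0 of the 45 members passed, against 1.08% of all genes (0.311% higher and 0.766% lower), and 3 were positive and 0 negative at an unadjusted p under 0.05. DESeq2 and limma-voom called 0 of the 45. Ndufaf4 had the largest value, with an effect of 0.16 at labelled day 7 and -0.20 at labelled day 1 and a difference of 0.36 ± 0.12 (edgeR adjusted p = 0.178). Its DKO libraries labelled day 7 were spread from 75.8 to 126 CPM around a median of 105, against 82.0 to 101 CPM in controls. Without DKO library m1026 the difference passed (adjusted p = 0.0394). The next values were those of Ndufa1 (0.30 ± 0.14, edgeR adjusted p = 0.413) and Ndufa5 (0.26 ± 0.10, edgeR adjusted p = 0.264). Outside the Nduf symbols, Acad9 stood nearest to the threshold, with -0.29 ± 0.08 (edgeR adjusted p = 0.0643). The difference of Acad9 passed with DESeq2 (adjusted p = 0.0109) and without control 13 (edgeR adjusted p = 0.0232) or control m1101 (edgeR adjusted p = 0.0452), and it did not pass with limma-voom (adjusted p = 0.0671).

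The comparison of labelled ages asks how complex I transcripts change over the first week. Nearly all subunits were lower in libraries labelled day 7 than in those labelled day 1, in both genotypes. Subunits are counted here by symbol and include Ndufa4 and Ndufa4l2, which lie outside complex I and fell in both genotypes. In DKO ventricles 35 of 37 subunits fell and 0 rose, against 25.3% of all genes lower and 27.3% higher (52.5% in all). In control ventricles 36 of 37 fell and 0 rose, against 25.6% of all genes lower and 27.4% higher (53.1% in all). The median log2 fold change of the subunits was -0.41 in DKO and -0.52 in controls, against 0.02 and 0.01 over all genes. All 6 libraries labelled day 7 were below all 6 labelled day 1 for 31 of 45 members in DKO and for 29 of 45 in controls, against 15.6% and 13.4% of all genes. Since the age markers ran opposite to the labels, the direction of these values holds only for the labels.

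Ndufa3 and Ndufa1, small subunits of the proximal membrane arm, had the largest values. This arm surrounds the mitochondrially encoded subunits next to the matrix arm. Ndufa5 of the Q module, Ndufb3 of the distal membrane module and Ndufa2 of the N module followed in both genotypes. Ndufa3 (ENSMUSG00000035674, chromosome 7), a short membrane protein, was at 111, 127 and 129 CPM in DKO and 80.3, 113 and 127 CPM in controls labelled day 7, against 384, 401 and 435 CPM in DKO and 348, 403 and 430 CPM in controls labelled day 1. No library labelled day 7 came near one labelled day 1. Its log2 fold change was -1.71 ± 0.08 in DKO (edgeR adjusted p = 3.12e-14) and -1.85 ± 0.08 in controls (edgeR adjusted p = 4.93e-15). Ndufa1 was at 122, 129 and 136 CPM in DKO and 80.0, 127 and 141 CPM in controls labelled day 7, against 291, 305 and 350 CPM in DKO and 276, 364 and 401 CPM in controls labelled day 1. Its groups did not overlap between labelled ages either, with -1.25 ± 0.10 in DKO and -1.55 ± 0.10 in controls. All 8 tested proximal subunits fell in both genotypes, with medians of -0.49 in DKO and -0.55 in controls. The medians were -0.39 and -0.53 for the distal membrane module, -0.41 and -0.52 for the N module, and -0.27 and -0.22 for the Q module. The smallest falls of single subunits overlapped between modules. Among the proximal subunits, the smallest falls were those of Ndufa8, a protein with paired cysteine motifs (-0.18 in DKO and -0.25 in controls), and of Ndufc2 (-0.19 in DKO and -0.29 in controls).

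In the distal membrane arm, which holds the outermost proton pumps, all 11 subunits fell in both genotypes, with medians of -0.39 in DKO and -0.53 in controls. Ndufb3 was at 50.6, 54.0 and 60.9 CPM in DKO and 39.2, 54.2 and 65.4 CPM in controls labelled day 7, against 92.1, 106 and 115 CPM in DKO and 95.1, 102 and 131 CPM in controls labelled day 1. All values labelled day 7 were below all labelled day 1 (-0.93 ± 0.10 in DKO and -1.03 ± 0.10 in controls). Ndufb2 followed, with -0.80 in DKO and -0.96 in controls. Ndufb10, among the most abundant members, was at a median of 589 CPM in DKO and 550 CPM in controls labelled day 7, against 804 CPM in DKO and 818 CPM in controls labelled day 1. The smallest values were those of Ndufb8, at -0.16 ± 0.07 in both genotypes (edgeR adjusted p = 0.0469 in DKO and 0.0375 in controls). That call was lost in 10 of 12 omissions of a single DKO library and in 8 of 12 omissions of a single control library (highest adjusted p 0.115 and 0.112).

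In the N module, which binds NADH, 8 of 10 subunits fell in DKO and 9 of 10 in controls. The largest values were those of Ndufa2, an accessory subunit with a thioredoxin-like fold, which was at medians of 196 CPM in DKO and 185 CPM in controls labelled day 7, against 359 CPM in DKO and 351 CPM in controls labelled day 1. Its ranges did not overlap between labelled ages (-0.92 ± 0.08 in DKO and -0.98 ± 0.08 in controls). Ndufv3, an accessory subunit next to the NADH site, had -0.75 in DKO and -0.81 in controls. In contrast, Ndufs1, the core subunit with several iron-sulfur clusters, was at 226, 245 and 265 CPM in DKO and 244, 252 and 291 CPM in controls labelled day 7, against 225, 256 and 266 CPM in DKO and 236, 272 and 327 CPM in controls labelled day 1. All 4 groups overlapped, and neither value passed (-0.04 ± 0.07 in DKO, edgeR adjusted p = 0.683, and -0.07 ± 0.07 in controls, edgeR adjusted p = 0.363). Ndufv1, which holds the flavin and binds NADH, fell by 0.22 in DKO and by 0.28 in controls on the log2 scale. Its partner Ndufv2 was at -0.13 ± 0.06 in DKO (edgeR adjusted p = 0.0567), which did not pass, and at -0.22 ± 0.06 in controls (edgeR adjusted p = 0.00277).

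In the Q module, all 6 subunits fell in both genotypes, with medians of -0.27 in DKO and -0.22 in controls. Ndufa5, an accessory subunit of the matrix arm, stood apart from the others. It was at 267, 305 and 318 CPM in DKO and 204, 273 and 288 CPM in controls labelled day 7, against 498, 562 and 576 CPM in DKO and 511, 593 and 653 CPM in controls labelled day 1. Its ranges did not overlap between labelled ages (-0.90 ± 0.07 in DKO and -1.16 ± 0.07 in controls). The core subunits Ndufs3, Ndufs7 and Ndufs8 lay between -0.15 and -0.32 in DKO and between -0.17 and -0.30 in controls. The call of Ndufs3 in DKO was lost in 6 of 12 omissions of a single library (highest adjusted p 0.0729), and that of Ndufa9, which binds a nucleotide cofactor at the junction of the arms, was lost in controls without control 14, 62 or m1088 (highest adjusted p 0.0791).

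Core and accessory subunits are given side by side. The 7 core subunits had a median of -0.22 and a range of -0.32 to -0.04 in DKO, and a median of -0.22 and a range of -0.30 to -0.07 in controls. The 28 tested accessory subunits had a median of -0.46 and a range of -1.71 to -0.16 in DKO, and a median of -0.56 and a range of -1.85 to -0.15 in controls. The difference between these sets was not tested, and the sets also differed in transcript length, described below. The shortest core transcript was that of Ndufs7 (983 nt), so members under 700 nt include no core subunit. Outside complex I, Ndufa4 was at 542, 563 and 582 CPM in DKO and 388, 546 and 559 CPM in controls labelled day 7, against medians of 985 CPM in DKO and 1043 CPM in controls labelled day 1. It fell in both genotypes without overlap (-0.80 ± 0.07 in DKO and -0.98 ± 0.07 in controls). Ndufa4l2 was at medians of 33.5 CPM in DKO and 30.1 CPM in controls labelled day 7, against 63.4 CPM in DKO and 58.8 CPM in controls labelled day 1 (-0.83 ± 0.13 in DKO and -0.80 ± 0.13 in controls).

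**Figure D3:**
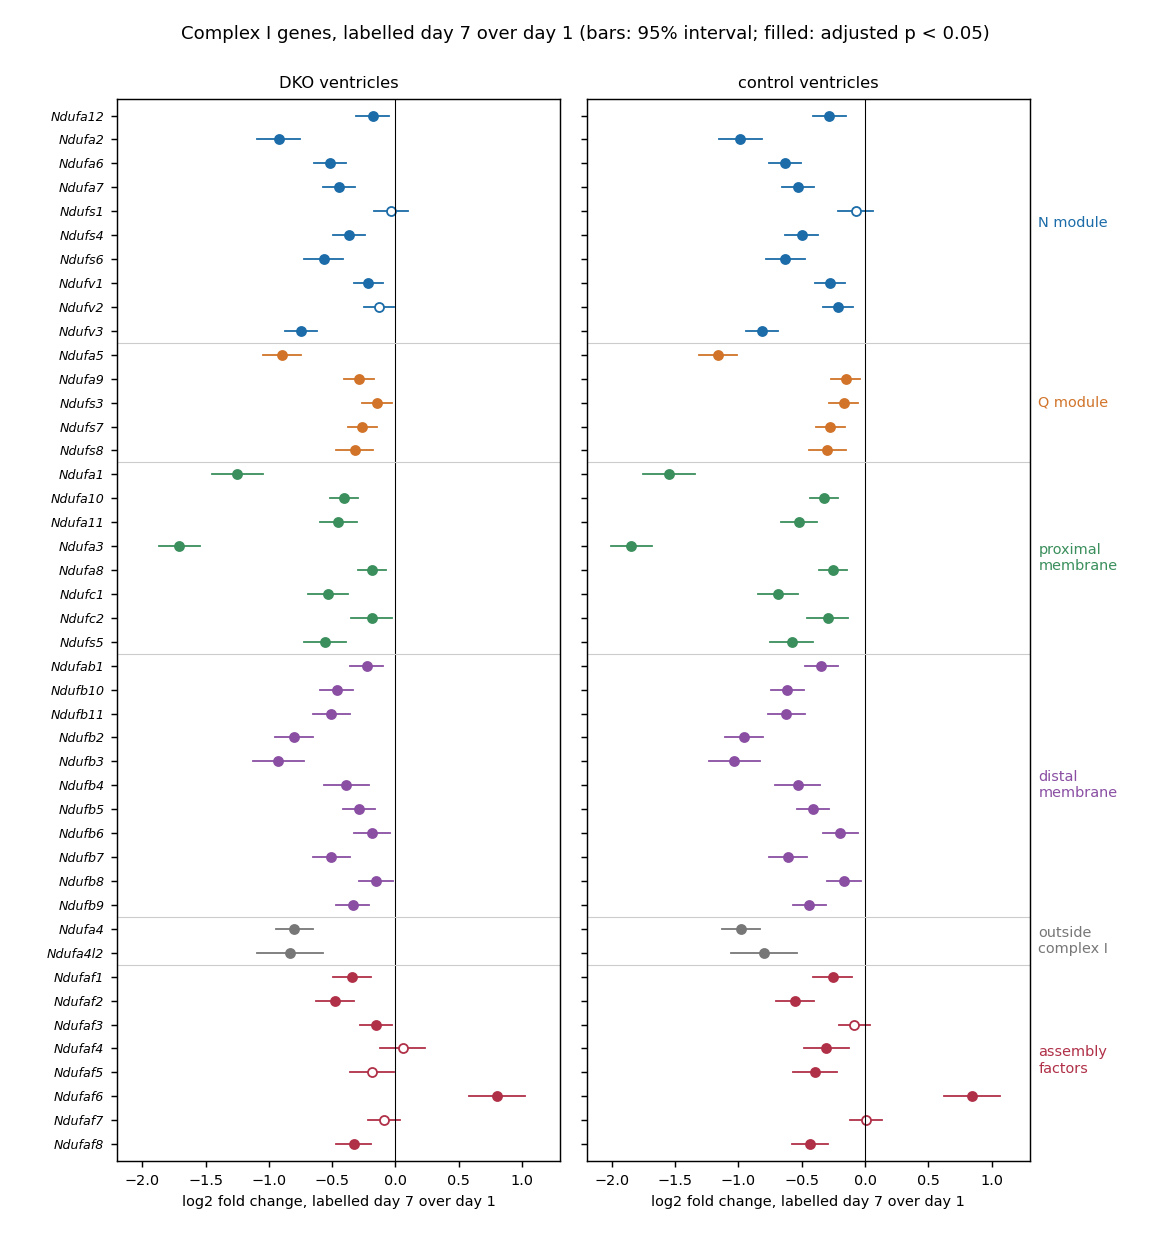
Log2 fold change of labelled day 7 over labelled day 1 for 44 of the 45 tested members (rows, grouped by module), in DKO on the left and control on the right. Points are edgeR estimates, bars are 95% intervals and filled points have an adjusted p under 0.05; Ndufa3 and Ndufa1 lie farthest to the left, Ndufs1 lies near 0, and Ndufaf6 is the filled point to the right of 0.

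Assembly factors were less uniform. Of the 8, 4 fell and 1 rose in DKO, and 5 fell and 1 rose in controls, with medians of -0.17 in DKO and -0.28 in controls. The shares over all genes were 25.3% lower and 27.3% higher in DKO, and 25.6% lower and 27.4% higher in controls. Ndufaf6 (ENSMUSG00000050323, chromosome 4), a protein of the prenyl synthase family needed in human cells for the mitochondrially encoded part of the complex, was at 37.3, 42.8 and 48.3 CPM in DKO and 36.5, 41.2 and 45.6 CPM in controls labelled day 7. At labelled day 1 it was at 18.4, 25.0 and 28.9 CPM in DKO and 17.7, 23.5 and 27.2 CPM in controls. Every library labelled day 7 was above every library labelled day 1. It rose by 0.80 ± 0.11 in DKO (edgeR adjusted p = 7.28e-07) and by 0.85 ± 0.11 in controls (edgeR adjusted p = 3.01e-07) on the log2 scale, and the call held in all 21 other settings in each genotype.

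The remaining assembly factors fell or did not pass. Ndufaf2 fell by 0.48 in DKO and by 0.55 in controls, and Ndufaf8, which stabilises Ndufaf5 in human cells, fell by 0.33 in DKO and by 0.43 in controls. Ndufaf1 fell by 0.34 in DKO and by 0.26 in controls. Ndufaf4 was at 0.06 ± 0.09 in DKO (edgeR adjusted p = 0.6) and fell by 0.30 ± 0.09 in controls (edgeR adjusted p = 0.00433). Ndufaf5 had -0.19 ± 0.08 in DKO (edgeR adjusted p = 0.0679) and fell by 0.40 in controls. Ndufaf3 fell by 0.15 in DKO, a call lost in 8 of 12 omissions of a single library, and was at -0.08 in controls. Ndufaf7 did not pass in either genotype (-0.09 in DKO and 0.01 in controls).

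Of the 14 tested assembly factor genes without an Nduf symbol, 5 fell and 2 rose in DKO, and 7 fell and 2 rose in controls. Over all genes, 25.3% fell and 27.3% rose in DKO, and 25.6% fell and 27.4% rose in controls. Chchd4 was at medians of 77.0 CPM in DKO and 66.3 CPM in controls labelled day 7, against 60.1 CPM in DKO and 49.3 CPM in controls labelled day 1, and rose in both genotypes (0.35 ± 0.08 in DKO and 0.42 ± 0.08 in controls). The other gene that rose in both was Aifm1, which anchors Chchd4 at the inner membrane (0.20 in DKO and 0.23 in controls). Acad9 fell by 0.21 in DKO and was at 0.08 in controls (edgeR adjusted p = 0.207). Sfxn4, needed for assembly in human cells, fell by 0.37 in DKO and by 0.43 in controls, and Tmem70, which also serves ATP synthase assembly, fell by 0.19 in DKO and by 0.27 in controls.

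Members with short transcripts tended to have the larger falls at labelled day 7, with exceptions. Ndufb2, at 4371 nt, had -0.80 in DKO and -0.96 in controls, and Ndufb8, at 680 nt, had -0.16 in both. Across the 45 members, the Spearman correlation of principal transcript length with the labelled-age log2 fold change was 0.51 in DKO and 0.48 in controls, as a description over genes measured in the same libraries. Over all 17352 genes it was 0.13 in DKO and 0.07 in controls. The 14 members under 700 nt had a median of -0.51 in DKO and -0.59 in controls, against -0.33 and -0.20 for the 1425 tested genes of that length. For the 16 members of 700 to 1200 nt the medians were -0.33 in DKO and -0.42 in controls, against -0.04 and -0.01 for the 1685 tested genes of that length. With an offset for the trend with length, 34 members fell and 1 rose in DKO, and 39 fell and 1 rose in controls. The share of all genes called with this offset is not given here. The part of transcript length in the falls was not tested.

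**Figure D4:**
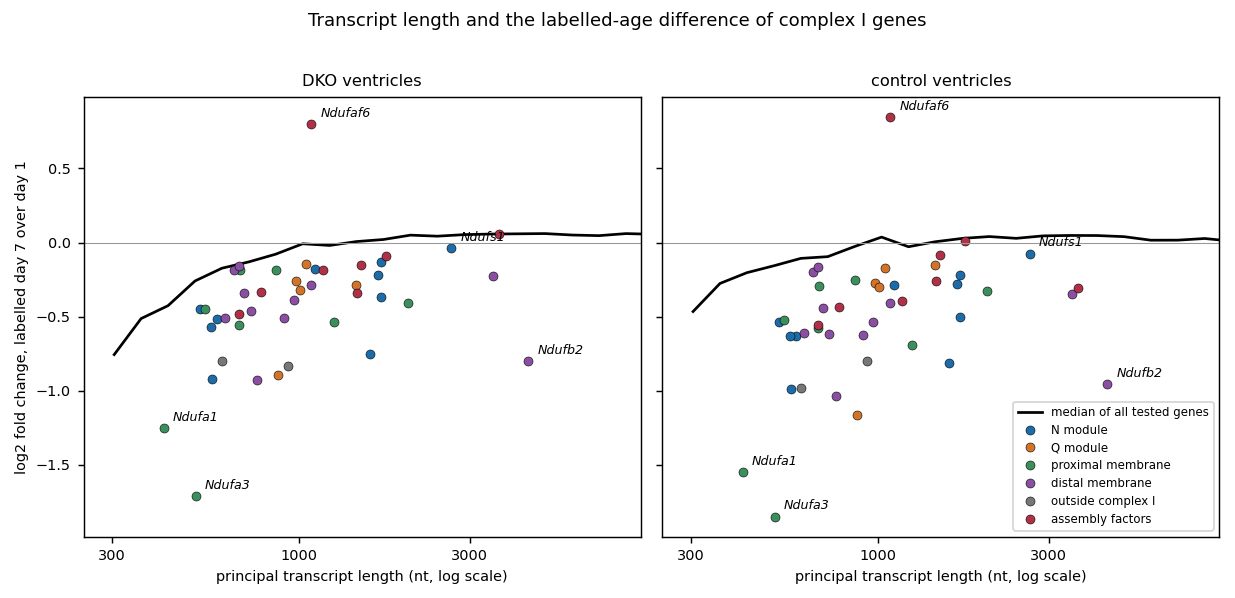
Principal transcript length (horizontal axis, nt, log scale) against the log2 fold change of labelled day 7 over labelled day 1 for 44 of the 45 tested members, in DKO on the left and control on the right, coloured by module. The line is the median of all tested genes in bins of length; Ndufa1 and Ndufa3 lie lowest, among the short transcripts, and Ndufaf6 lies above the line.

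Markers of cell types in the ventricle also differed between the labelled ages. The summed level of 6 fibroblast markers was 3169 to 3946 CPM in DKO and 2125 to 3918 CPM in controls labelled day 7, against 5373 to 6441 CPM in DKO and 5008 to 6366 CPM in controls labelled day 1. That of 5 endothelial markers was 666 to 764 CPM in DKO and 604 to 742 CPM in controls labelled day 7, against 1080 to 1164 CPM in DKO and 956 to 1139 CPM in controls labelled day 1. Erythroid markers (4 of 5 detected, with Alas2 at 0) summed to 6376 to 9427 CPM in DKO and 7201 to 10868 CPM in controls labelled day 7, against 10488 to 24791 CPM in DKO and 11664 to 20102 CPM in controls labelled day 1. These 3 lists did not overlap between labelled ages in either genotype. The 8 cardiomyocyte markers summed to 42919 to 53860 CPM in DKO and 45782 to 58154 CPM in controls labelled day 7, against 49366 to 53952 CPM in DKO and 50440 to 62418 CPM in controls labelled day 1, with overlap. The 4 atrial markers were at 591 to 2475 CPM in DKO and 387 to 692 CPM in controls labelled day 7, against 120 to 837 CPM in DKO and 50.6 to 517 CPM in controls labelled day 1. The 5 macrophage markers were at 50.8 to 73.1 CPM in DKO and 41.8 to 59.2 CPM in controls labelled day 7, against 64.1 to 85.1 CPM in DKO and 71.4 to 92.8 CPM in controls labelled day 1. The 4 mural markers were at 944 to 1509 CPM in DKO and 1025 to 1755 CPM in controls labelled day 7, against 1649 to 2143 CPM in DKO and 1325 to 1972 CPM in controls labelled day 1. Between DKO and control, the summed ranges of all 7 lists overlapped at both labelled ages, but single markers did not at labelled day 1. There, 3 of the 8 cardiomyocyte markers had all 6 DKO libraries below all 6 controls: the calcium release channel Ryr2 (1036 to 1501 CPM in DKO and 1573 to 2381 CPM in controls), the sarcomere protein Ttn (3746 to 4029 CPM in DKO and 4239 to 4821 CPM in controls) and troponin T, Tnnt2 (7646 to 9074 CPM in DKO and 9456 to 13596 CPM in controls). The other markers of that list overlapped, among them Actn2 (1861 to 2101 CPM in DKO and 1716 to 2120 CPM in controls). Myh6 was at 25042 to 29796 CPM in DKO and 24355 to 31758 CPM in controls. Over all genes, 3.09% had all 6 DKO libraries below all 6 controls at labelled day 1, and 6.3% had them above. The atrial marker and stress peptide Nppa was at 90.8 to 787 CPM in DKO and 15.7 to 87.4 CPM in controls, without overlap. Myl7, of the same list, was at 0.564 to 17.3 CPM in DKO and 1.34 to 303 CPM in controls, with overlap. At labelled day 7 the ranges of every single marker overlapped between the genotypes. The part of cell makeup in the differences of complex I genes was not tested.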

How the data were processed

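The authors deposited whole-number counts of reads for each gene, unnormalised, in a table where every library has its own column. The submitters' processing notes name STAR 2.4.2a, bcl2fastq and the build GRCm39. Neither the counting program, nor how reads on overlapping genes were assigned, nor the annotation release is given in the sources used here. Per the labels' protocols, libraries were made from total RNA with a low-input kit, which does not mark strand, so reads of genes that overlap on either strand cannot be told apart.

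A filter on low counts (edgeR's filterByExpr with all 4 groups and a minimum count of 10) left 17352 genes. Counts were scaled by TMM and tested with the robust quasi-likelihood F-test of edgeR 4.0.16 in R 4.3.3, adjusted by Benjamini-Hochberg over all genes, with a threshold of 0.05. Genotype effects were fitted within each labelled age over 12 libraries, and the difference between labelled ages and the labelled-age effects over all 24. The SE is the absolute log2 fold change over the square root of F and is approximate. No library name was shared between groups, so none was paired. Alternatives used DESeq2 1.42.0, limma 3.58.1, other scalings, other filters, single-library omissions and, added after seeing the data, an offset for transcript length. The fits were tested on simulated data. Overlap and transcript length came from GENCODE M21 (GRCm38), with the annotated principal transcript. Cell type markers are summed without a test. The members and lists were chosen with earlier results of these data known. Genes named were, for each genotype comparison, up to 15 past the threshold and the 3 highest and 3 lowest members, for each labelled-age comparison the 5 largest and 5 smallest called effects, the 3 highest and 3 lowest levels per kb, the 7 core subunits, Ndufa4 and Ndufa4l2. The values of 1 of these genes are not reported here, and the figures leave it out; counts and medians over members include it. Other genes given with values, such as Ndufa8, Ndufc2, Ndufv3, Ndufaf1, Ndufaf8, Ndufb7, Ndufa11, Ndufa11b, Aifm1, Sfxn4 and Tmem70, were chosen after their values were seen.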

Additional observations from a re-analysis of the deposited data

Results flagged for a closer look

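Several levels stood apart from the other 5 libraries of their group by Dixon's test on the gap to the nearest library over the range. Of 132 groups of 6 examined, 19 held such a value, where chance gives about 1 in 20 for a single group. The groups share the same libraries and are not independent, so the 19 cannot be judged against that rate. The control library m1088, labelled day 7, held 8 of them, all low: 7 genes and the summed subunits. The sum was at 10878 CPM, with the next library at 13046 CPM. In m1088, Ndufa4 was at 388 CPM, Ndufa5 at 204 CPM, Ndufaf2 at 15.2 CPM, Ndufb10 at 487 CPM, Ndufb2 at 40.1 CPM, Ndufb9 at 443 CPM and Ndufs3 at 336 CPM. The DKO library 33, labelled day 1, was low for Chchd4 (50.9 CPM), Ndufa12 (546 CPM), Ndufa5 (498 CPM), Ndufs8 (284 CPM) and Ndufv2 (655 CPM). Single values also stood apart for Ndufa1 in DKO 79 (350 CPM) and Ndufa4l2 in DKO m1092 (47.1 CPM). In controls they were Ndufv2 in 13 (681 CPM), Chchd4 in 22 (56.9 CPM), Ndufaf3 in 22 (30.0 CPM) and Chchd4 in m1101 (78.6 CPM). The causes were not tested.

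The processed pseudogene row Ndufa11b, a copy of the proximal membrane subunit Ndufa11 and no member, had 9724 counts over the 24 libraries. Reads shared with Ndufa11 could not be told apart. It was at 18.4, 22.5 and 24.2 CPM in DKO and 9.37, 11.9 and 13.1 CPM in controls labelled day 1 (lowest, median and highest), a log2 fold change of 0.88 ± 0.09 (edgeR adjusted p = 9.43e-06). All 6 DKO libraries were above all 6 controls there. At labelled day 7 it was at 6.52, 9 and 10.7 CPM in DKO and 7.23, 8.38 and 9.06 CPM in controls, with a log2 fold change of 0.08 ± 0.13 (edgeR adjusted p = 0.834). The genotype effect differed between the labelled ages by -0.79 ± 0.16 (edgeR adjusted p = 0.0136). Ndufa11 itself was at a log2 fold change of 0.09 ± 0.08 at labelled day 7 and 0.03 ± 0.05 at labelled day 1, and neither passed (edgeR adjusted p = 0.646 and 0.76).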

How the results depend on the processing

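The count of members called between DKO and control at labelled day 1 was 1, and it was 0 with upper-quartile scaling, with protein-coding rows only, with those rows and the length offset, and with all 24 libraries in a single fit. It was 14 with the length offset over all rows, and 0 to 2 over the omissions of single libraries, where the 2 came without control 13. The length offset also turned Ndufa2 (-0.17) and Ndufa3 (-0.21) lower in DKO at labelled day 1. At labelled day 7 the count was 0 in every setting run. For the difference between labelled ages it was 0, and 0 to 1 over the omissions. The labelled-age counts stayed near their values of 40 in DKO and 42 in controls: 35 to 43 in DKO and 37 to 42 in controls over the other tools, scalings, filters and offsets, and 34 to 42 and 38 to 42 over the omissions. Ndufb8 turned positive in controls with protein-coding rows and the offset (0.046), and in DKO with the offset over all rows (0.017) and over protein-coding rows (0.032). The causes were not tested. Intervals cover the spread between libraries, and at labelled day 7 they were wider (median width 0.31 on the log2 scale, against 0.25 at labelled day 1). Libraries labelled day 7 were also shallower, with the low control m1088 the shallowest at 17334498 counts. The part of depth or of m1088 in the width was not tested. Genes whose exons lie inside other genes, pseudogene copies and unmatched promoters limit what single members show.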
